A study of Mus musculus with 8 samples.

Results

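Cholesterol and fatty acid genes were followed across 4 lines derived from A20, a B lymphoma of the mouse that grows in culture and serves as a model of mature B cells. The set held 38 genes, chosen by name from 34797 named genes on the array: enzymes of the mevalonate and sterol pathways, sterol sensors, liver X receptors and exporters, carriers of sterol uptake and transport, and lipogenic enzymes. All 38 had probes, 55 in all, and 37 could be tested. The fatty acid desaturase Fads2 had 2 probes and neither was well above background on any array, so it has only that bound.

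The lines were untransfected A20 cells, a stable transfectant positive for membrane IgM, and IgE-positive stable transfectants of membrane IgE, clone 18 and clone 41. Each line gave 2 arrays, so the study holds 8, and the design sets the IgE transfectants against untransfected or IgM controls. All lines grew in RPMI1640 with 10% serum and 50 µM beta-mercaptoethanol, and 1 µg of RNA went onto each single-dye array. The IgE arm rests on 2 clones, and how many clones made up the IgM line is not stated. The labels do not say either whether replicates were separate cultures, so p-values measure the spread between these arrays, which may be technical.

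Cholesterol is built from acetyl-CoA through mevalonate, farnesyl pyrophosphate, squalene and lanosterol. The transcription factor SREBP-2, encoded by Srebf2, drives most genes of this path. When membrane sterol is high, Insig proteins hold SREBP and its escort Scap in the endoplasmic reticulum, and oxysterols activate the liver X receptors Nr1h2 and Nr1h3, which raise sterol exporters and the ligase Mylip. Proliferating lymphocytes are known to depend on this pathway for new membrane.

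SREBP works beside the CCAAT-binding factor NF-Y at many promoters of the pathway, so the promoters of the enzymes described most closely below are shown with these boxes marked. RefSeq promoter windows on GRCm38.p6 were matched for 29 of the 38 genes, each window running from 250 bases before the transcription start to 50 after it. CCAAT, searched on both strands, lay in the windows of 22 of the 29 and in all 14 of the matched synthesis enzymes, against 41.1% of all genes in the table. The sterol element letters TCACNCCAC, also on both strands, lay in 1 of the 29, Hmgcs1, and in 1.44% of all genes. GGGCGG, the GC box, lay in 23 of the 29 and in 13 of the 14 synthesis enzymes, against 38.2% of all genes. A match is a stretch of letters, not a bound site, and the windows' base composition was not matched.

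The last 150 bases before the start are printed for 6 synthesis enzymes whose arrays differed widely and for Npc1l1, the sterol carrier that followed IgE. Each reads 5′ to 3′ on the gene's strand, with CCAAT or its reverse ATTGG in capitals and, in Hmgcs1, the sterol element in capitals as well. The windows are chr13:119690201-119690350 (plus strand) for Hmgcs1, chr13:8885456-8885605 (plus) for Idi1, chr8:122443423-122443572 (minus) for Mvd and chr10:76531455-76531604 (plus) for Lss. They are chr8:64733579-64733728 (minus) for Sc4mol, chr1:169969206-169969355 (minus) for Hsd17b7 and chr11:6230246-6230395 (minus) for Npc1l1.
Hmgcs1: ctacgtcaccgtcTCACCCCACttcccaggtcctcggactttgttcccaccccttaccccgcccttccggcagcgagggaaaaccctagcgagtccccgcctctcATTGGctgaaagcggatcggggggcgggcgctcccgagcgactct
Idi1: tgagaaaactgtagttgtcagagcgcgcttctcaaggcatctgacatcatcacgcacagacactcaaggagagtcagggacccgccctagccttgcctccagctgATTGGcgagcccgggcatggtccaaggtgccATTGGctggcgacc
Mvd: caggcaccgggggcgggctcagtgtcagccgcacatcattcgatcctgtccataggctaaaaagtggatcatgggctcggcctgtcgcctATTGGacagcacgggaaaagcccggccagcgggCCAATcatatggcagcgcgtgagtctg
Lss: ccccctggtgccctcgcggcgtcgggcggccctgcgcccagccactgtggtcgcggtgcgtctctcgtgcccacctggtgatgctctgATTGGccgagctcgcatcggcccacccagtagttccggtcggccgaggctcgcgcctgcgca
Sc4mol: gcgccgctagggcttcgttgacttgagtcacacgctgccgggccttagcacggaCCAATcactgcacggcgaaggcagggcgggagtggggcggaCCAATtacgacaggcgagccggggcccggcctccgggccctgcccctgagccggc
Hsd17b7: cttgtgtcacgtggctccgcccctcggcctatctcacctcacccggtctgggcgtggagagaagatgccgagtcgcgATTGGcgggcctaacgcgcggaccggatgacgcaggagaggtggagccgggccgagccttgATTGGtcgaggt
Npc1l1: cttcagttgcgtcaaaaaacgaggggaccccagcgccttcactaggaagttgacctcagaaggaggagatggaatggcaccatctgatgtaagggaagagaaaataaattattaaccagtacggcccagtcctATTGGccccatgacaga

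The CCAAT box began 45 bases before the start in Hmgcs1, and 45 and 14 bases before it in Idi1. The boxes began 60 and 27 bases before the start in Mvd, 62 in Lss, 96 and 55 in Sc4mol, and 73 and 12 in Hsd17b7. In Npc1l1 the box began 17 bases before the start, and the sterol element of Hmgcs1 began 137 bases before it.

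On the arrays, 49.7 to 58.9% of spots were well above background, and an array's 75th percentile of intensity was 474 to 664. Values below are log2 intensities over that percentile, given for replicate 1 and then replicate 2 of each line. They compare arrays for 1 probe, not levels between genes. All 8 B cell markers looked for were above background on every array. Of 5 liver and fat cell markers, 0 were above background on all arrays and Alb, Ttr and Plin1 were above it on none. Of 5 myeloid markers on the array, 4 were above background on every array. The macrophage antigen Emr1 ran from -1.15 to 2.59 on the control arrays and from -4.43 to -2.73 on the IgE arrays, and Cd68 from 0.95 to 1.55 and from 2.30 to 3.6. Of 4 T cell markers 2 were above background everywhere. Their part in the results was not tested. In RNA from whole cultures, a change in every cell and a change in some of the cells cannot be told apart.

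The 2 untransfected arrays stood apart from each other in these genes before any line was compared. The median synthesis enzyme, of 17, was 1.71 log2 units lower on replicate 2 than on replicate 1 (-1.71), and 13 of the 17 were at least 2-fold lower. The same median was 0.10 in the IgM line, -0.05 in clone 18 and -0.36 in clone 41, with 0 of 17 enzymes 2-fold apart in any of these lines. The all-gene shares that were 2-fold lower and higher there were 3.83% and 1.46% in the IgM line, 1.76% and 0.726% in clone 18, and 1.55% and 2.73% in clone 41. Over all genes, 5.66% were at least 2-fold lower on untransfected replicate 2, against 19 of the 37 genes of this set. The pair differed more than the pairs of the other lines across the whole array too, with an SD of the differences of 0.74 against 0.50, 0.42 and 0.47. Which of the 2 arrays stands for the line was not tested. Values without 1 or both of them are therefore given beside the counts, the medians of each group of enzymes and the differences that moved most. The fit without both was added after the data were seen.

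**Figure D1:**
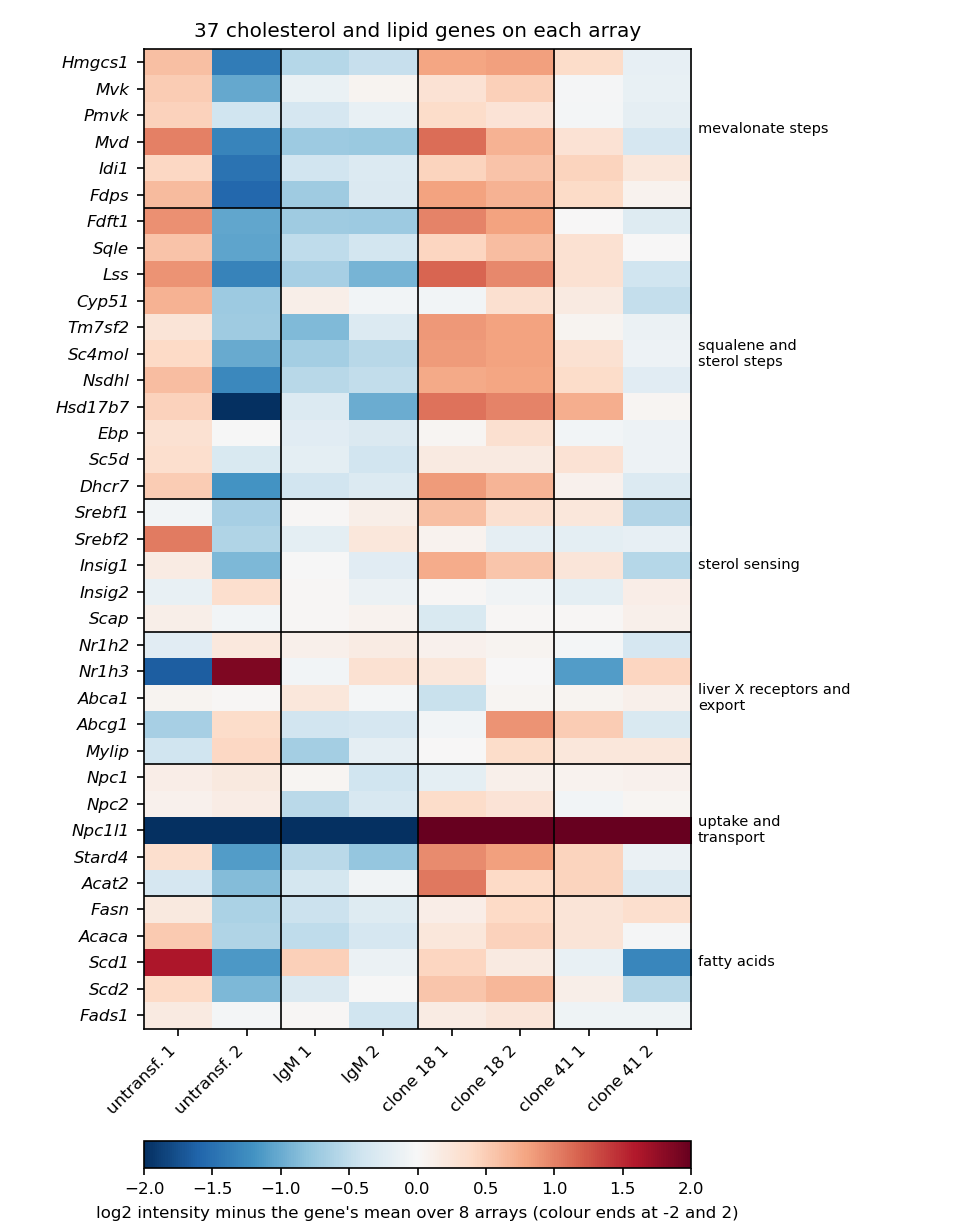
Each row is 1 of 37 genes and each column 1 array; colour is the log2 intensity minus the gene's mean over the 8 arrays, with the scale ending at -2 and 2. The synthesis enzymes in the upper 2 blocks are mostly blue on untransfected replicate 2 and the IgM arrays and mostly red on untransfected replicate 1 and clone 18. Npc1l1 is the 1 row of the 37 split cleanly between control and IgE arrays, a split that 4975 of 19952 genes had.

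Against both control lines together, 1 of the 37 genes, Npc1l1, rose in the IgE clones, while 8.99% of all 19973 genes tested passed in either direction and 3.4% were higher. Passing needed an adjusted p under 0.05 together with a difference of 2-fold or more. At an unadjusted p under 0.05, 8 of the 37 passed, against 6904 of all genes (34.6%). The median difference of the 37 was 0.46, against 0.04 over all genes, and 29 of the 37 differences were positive, against 54.0% of all genes. A count of 1 in 37, in the higher direction, is close to the 3.4% of all genes that were higher. The count was 14, all higher, without untransfected replicate 1 (4.16% of all genes higher) and 1 without replicate 2 (3.85%).

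Npc1l1, the sterol carrier of the gut surface that ezetimibe blocks, was the single gene of the set found on IgE arrays and not on control arrays. Its signal read -6.88 and -5.79 in untransfected cells and -5.79 and -6.86 in IgM cells, and none of these 4 spots was well above background. In clone 18 it read 2.57 and 2.21, and in clone 41 2.00 and 1.97. As scanned, that was 5.03 to 11.9 intensity units on the control arrays and 1861 to 2898 on the IgE arrays. The groups were far apart with no overlap, and the clones lay close to each other. Over all genes, IgE and control arrays did not overlap for 4975 of 19952, with the IgE arrays above for 2869.

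Because the control spots are only bounds, the change is given against the lowest signal that counted as above background. Npc1l1 rose at least 129-fold in the IgE clones against the control lines (adjusted p = 2.26e-05 by limma). The gene passed the filter only through the IgE lines, and its control values are below background. Its p-value is therefore not separate support for the rise. The bound was at least 149-fold in clone 18 and 113-fold in clone 41 against untransfected cells, and 148-fold and 112-fold against IgM cells. Clone 41 minus clone 18 was -0.40 ± 0.46 (SE), adjusted p = 0.999, with a 95% interval of -1.48 to 0.68. The probe lay on mm9 at chr11:6111461-6111520, minus strand, and it was the only probe for Npc1l1, so no second probe checks it.

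**Figure D2:**
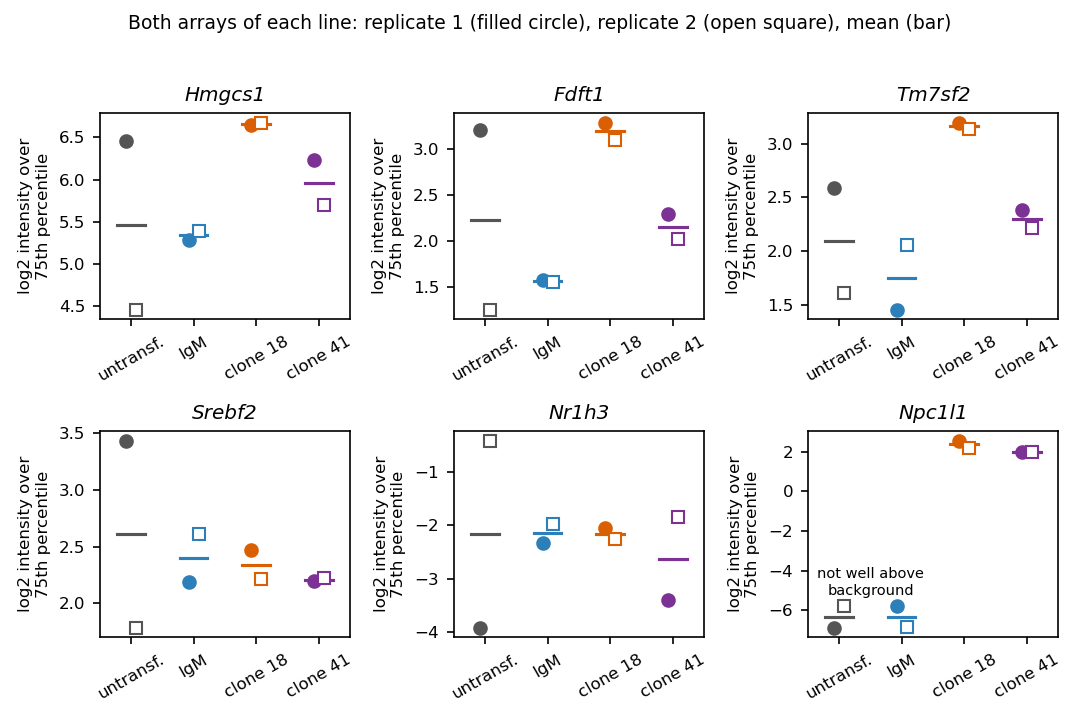
Both arrays of each line for 6 genes, as log2 intensity over the array's 75th percentile; circles are replicate 1, open squares replicate 2 and bars the mean, and each panel has its own scale. Npc1l1 separates the IgE clones from the controls, while for Hmgcs1, Fdft1, Srebf2 and Nr1h3 the 2 untransfected arrays lie at or near opposite ends of the range.

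The other carriers and transporters of the set did not pass in the comparison of IgE clones with both controls. Stard4, a cytosolic sterol carrier, read 2.51 and 1.04 in untransfected cells, 1.63 and 1.39 in IgM cells, 3.12 and 2.98 in clone 18, and 2.61 and 2.05 in clone 41. Every IgE array was above both IgM arrays (35.3% of all genes for clone 18, 33.6% for clone 41), and untransfected replicate 1 lay among the IgE arrays. The difference from both controls was 1.05 ± 0.32 (adjusted p = 0.0678), and it was 1.41 without untransfected replicate 1, which passed, and 0.68 without replicate 2. Without both untransfected arrays, a fit added after the data were seen, Stard4 in clone 18 stood 1.54 ± 0.23 above IgM cells (adjusted p = 0.00876) and passed. A second Stard4 probe gave smaller differences when every probe was tested on its own by limma with all arrays. They were 0.53 for IgE clones against controls (adjusted p = 0.344) and 0.82 for clone 18 against IgM (adjusted p = 0.352).

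Npc2, which hands cholesterol out of the lysosome, had close replicates: 2.39 and 2.46 in untransfected cells, 1.78 and 1.99 in IgM cells, 2.67 and 2.58 in clone 18, and 2.25 and 2.35 in clone 41. The IgM arrays were the lowest. Clone 18 was 0.74 ± 0.16 above IgM cells (adjusted p = 0.0319), which is short of 2-fold, and 0.20 above untransfected cells. Npc1, its membrane partner, read -1.59 and -1.53, -1.69 and -2.12, -1.92 and -1.62, and -1.66 and -1.64 in the same order of lines. All arrays lay between -2.12 and -1.53, and the difference between IgE clones and controls was 0.02 ± 0.14.

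Acat2, the cytosolic thiolase that makes acetoacetyl-CoA at the head of the pathway, read -0.88 and -1.42 in untransfected cells and -0.89 and -0.62 in IgM cells. It read 0.51 and -0.15 in clone 18 and -0.11 and -0.83 in clone 41. Both clone 18 arrays were above every control array, and clone 41 overlapped the IgM line. The IgE clones were 0.81 ± 0.24 above the controls (adjusted p = 0.0636).

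The 6 mevalonate enzymes had positive differences between the mean of the IgE clones and the mean of the controls, with a median of 0.87. That median moved when 1 untransfected array was left out, to 1.37 without replicate 1 and to 0.34 without replicate 2, where 4 of the 6 differences were positive. Without both untransfected arrays it was 0.86. By limma 0 of the 6 passed, and 0 had an unadjusted p under 0.05. Hmgcs1, the synthase that commits acetoacetyl-CoA to HMG-CoA, read 6.46 and 4.46 in untransfected cells, 5.28 and 5.40 in IgM cells, 6.64 and 6.67 in clone 18, and 6.22 and 5.70 in clone 41. Clone 18 was highest, clone 41 lay between it and IgM, and the untransfected arrays lay on both sides of the IgM line. The difference from the controls was 0.91 ± 0.41 (adjusted p = 0.173). It was 1.41 without untransfected replicate 1, which passed (adjusted p = 0.00305), and 0.41 without replicate 2, which did not (adjusted p = 0.126).

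Mvd, which decarboxylates mevalonate pyrophosphate, read 3.59 and 1.26, 1.86 and 1.84, 3.69 and 3.27, and 2.87 and 2.24 in the same order of lines. Idi1, the isomerase that follows it, read 5.39 and 3.5, 4.60 and 4.71, 5.43 and 5.55, and 5.43 and 5.20. Fdps, which makes farnesyl pyrophosphate, read 6.71 and 4.50, 5.37 and 5.78, 6.88 and 6.77, and 6.46 and 6.15, with the 6.71 saturated. All 3 were lowest on untransfected replicate 2, and all had untransfected replicate 1 above both IgM arrays.

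Mevalonate kinase, Mvk, differed from these in clone 41: 3.92 and 3.79, against 3.81 and 4.0 in IgM cells, and 4.23 and 4.43 in clone 18. Its untransfected arrays read 4.45 and 2.92. Pmvk, the next kinase, read 5.35 and 4.48 in untransfected cells, 4.55 and 4.74 in IgM cells, 5.26 and 5.16 in clone 18, and 4.84 and 4.70 in clone 41. For both kinases clone 41 overlapped the IgM line.

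Among the 11 squalene and sterol enzymes, Tm7sf2 passed in 1 comparison and 0 passed against both controls together by limma, where 3 had an unadjusted p under 0.05. In that comparison 10 of 11 differences were positive and the median was 0.77. The median of the 11 was 1.10 without untransfected replicate 1, 0.29 without replicate 2 and 0.95 without both. Tm7sf2, a sterol C14 reductase, read 2.58 and 1.61 in untransfected cells and 1.45 and 2.05 in IgM cells. In clone 18 it read 3.20 and 3.14, and in clone 41 2.39 and 2.21. Clone 18 was above every other array. It rose by 1.42 ± 0.35 in clone 18 against IgM cells (adjusted p = 0.0483), just inside the threshold. The call was lost in 11 of 19 alternative fits, where the adjusted p ran from 0.0118 to 0.237.

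Fdft1, which joins farnesyl units into squalene, had a tight IgM pair and a wide untransfected pair. It read 3.20 and 1.25 in untransfected cells, 1.57 and 1.56 in IgM cells, 3.28 and 3.09 in clone 18, and 2.29 and 2.02 in clone 41. Clone 41 lay above the IgM line and clone 18 above clone 41, with untransfected replicate 1 at the level of clone 18. Clone 18 minus IgM was 1.62 ± 0.56 with all arrays in the fit (adjusted p = 0.126). Without both untransfected arrays the same difference had an SE of 0.16 and passed (adjusted p = 0.00255).

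Sqle, the squalene epoxidase, read 5.17 and 3.55 in untransfected cells, 4.10 and 4.24 in IgM cells, 5.03 and 5.23 in clone 18, and 4.90 and 4.62 in clone 41. Lss, which closes the ring to lanosterol, read 2.12 and -0.11, 0.56 and 0.29, 2.39 and 2.18, and 1.53 and 0.82. Sc4mol, the C4 methyl oxidase now named Msmo1, read 5.48 and 4.07, 4.41 and 4.53, 5.93 and 5.89, and 5.38 and 4.98. For these 3 enzymes both arrays of both IgE clones were above both IgM arrays, and the untransfected arrays spanned the IgM values. Of all genes, clone 18 was above both IgM arrays for 35.3% and clone 41 for 33.6%.

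Nsdhl, the dehydrogenase that works beside Sc4mol, read 1.87 and -0.04 in untransfected cells, 0.70 and 0.76 in IgM cells, 2.01 and 2.04 in clone 18, and 1.62 and 1.03 in clone 41. Hsd17b7, the keto reductase of the same complex, read 0.01 and -2.47, -0.72 and -1.44, 0.64 and 0.54, and 0.28 and -0.41. Dhcr7, which makes cholesterol from its dehydro precursor, read 2.14 and 0.44, 1.25 and 1.35, 2.48 and 2.31, and 1.72 and 1.36. In all 3 clone 18 was the highest line. Hsd17b7 had the largest difference from the controls after Npc1l1, 1.42 ± 0.53 (adjusted p = 0.11). Without untransfected replicate 1 it was 2.04 and passed (adjusted p = 0.00412), and without replicate 2 it was 0.80 and did not (adjusted p = 0.0769). When every probe was tested on its own, another Hsd17b7 probe gave 2.31 (adjusted p = 0.00868) and passed.

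Cyp51, the lanosterol demethylase, did not share the order of the lines. It read 2.21 and 0.79 in untransfected cells, 1.64 and 1.47 in IgM cells, 1.46 and 1.85 in clone 18, and 1.71 and 1.05 in clone 41. All lines overlapped, and the IgE clones differed from the controls by -0.01 ± 0.33. The late sterol enzymes Ebp and Sc5d spanned 4.43 to 5.05 and 2.25 to 2.98 over all 8 arrays, and their differences from the controls were 0.11 and 0.27.

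The synthesis enzymes varied together from array to array. The median synthesis enzyme, as a deviation from each gene's mean over the 8 arrays, stood at 0.51 and -1.05 in untransfected cells and at -0.51 and -0.37 in IgM cells. It stood at 0.79 and 0.69 in clone 18 and at 0.30 and -0.15 in clone 41. Untransfected replicate 2 was the lowest of the 8 arrays for 14 of 17 enzymes (20% of all genes), and a clone 18 array was the highest for 13 of 17 (26.7% of all genes). In clone 41 replicate 2 was below replicate 1 for all 17, against 51.6% of all genes. These shares describe arrays, and the 17 enzymes are not independent of each other.

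Set against the IgM line alone, whose arrays differed by -0.72 to 0.60 over the 17 enzymes, clone 18 was above both IgM arrays for 16 of 17 and for 28 of the 37 genes (35.3% of all genes). Clone 41 was above both for 14 of 17 and for 22 of 37 (33.6% of all genes). Clone 41 was below both clone 18 arrays for 15 of 17 and 24 of 37 (20% of all genes). The synthesis medians were 1.25 for clone 18 against IgM, 0.59 for clone 41 against IgM and -0.66 for clone 41 against clone 18. Both differences from IgM share the IgM arrays.

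With all 8 arrays in the fit, 2 of the 37 genes passed for clone 18 against IgM, Tm7sf2 and Npc1l1 (9.14% of all genes, 3.4% higher), and 1 for clone 41 against IgM, Npc1l1 (7.39% of all genes, 2.66% higher). Without both untransfected arrays, a fit added after the data were seen, the former count was 12, all higher. Of all genes, 11.2% passed in either direction in that fit and 4.27% were higher. The arrays left out were those that differed in these same genes, so this count is not separate support. The 12 were Hmgcs1, Mvd, Fdps, Fdft1, Lss, Tm7sf2, Sc4mol, Nsdhl, Hsd17b7, Dhcr7, Npc1l1 and Stard4, of which 10 are synthesis enzymes. The differences themselves were the same in both fits and only the spread changed: Lss was 1.86, Mvd 1.63 and Hmgcs1 1.32 higher. For clone 41 against IgM the count without them was still 1 (9.59% of all genes), and for the 2 IgE clones against IgM it was 7 (10.9% of all genes).

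**Figure D3:**
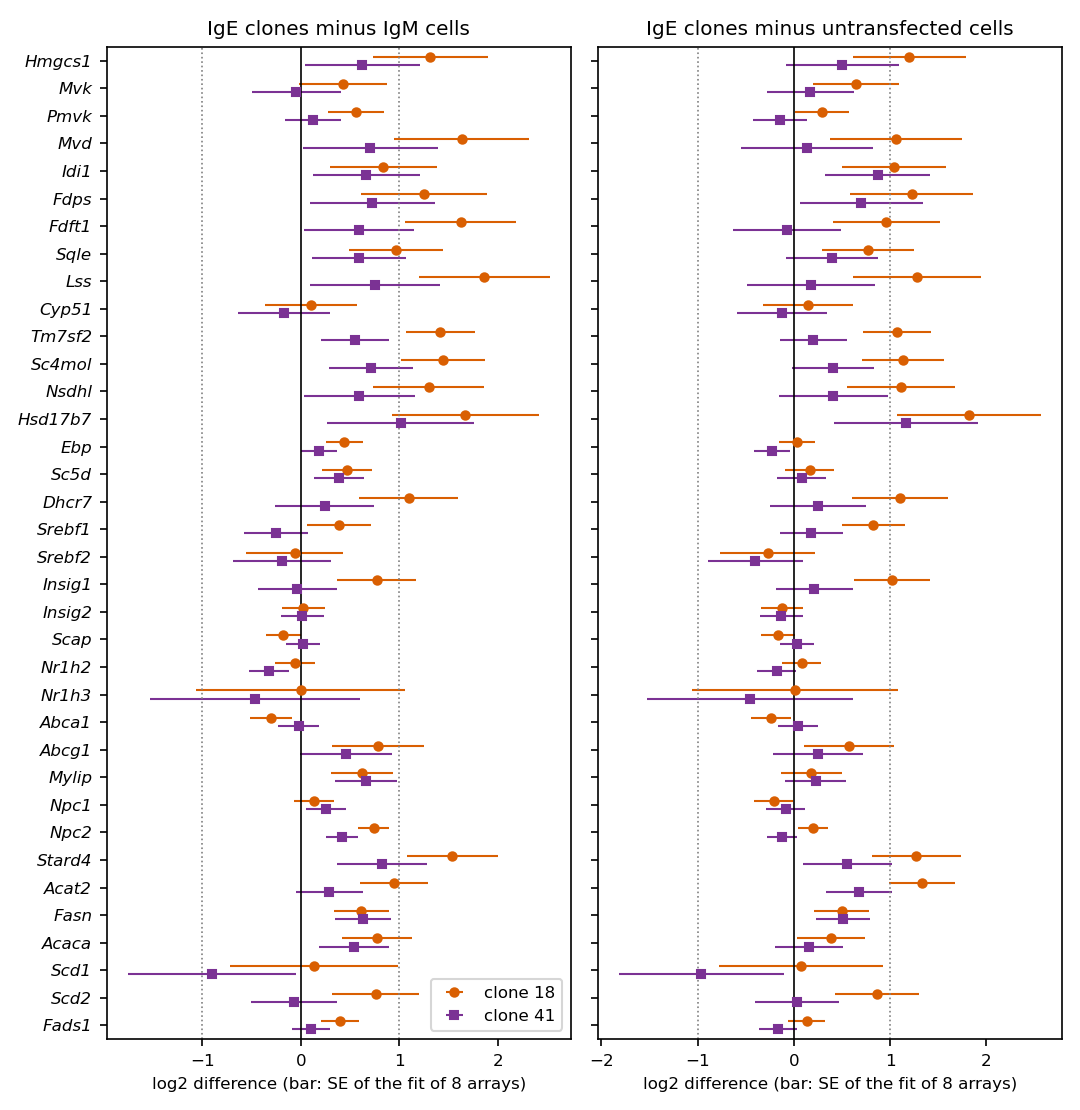
Log2 difference of clone 18 (circles) and clone 41 (squares) from IgM cells (left) and from untransfected cells (right) for 36 genes, leaving out Npc1l1; bars are the SE of the fit of 8 arrays and dotted lines mark 2-fold. For most synthesis enzymes clone 18 lies to the right of clone 41 in both panels, and the bars are wide because all lines share 1 spread per gene.

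Between the IgE clones, 0 of the 37 genes passed by limma (0.355% of all genes), and 1 had an unadjusted p under 0.05. That gene was Tm7sf2, 0.87 lower in clone 41 than in clone 18 (-0.87 ± 0.35, adjusted p = 0.817). For the 17 enzymes each clone 41 mean was below the clone 18 mean, by up to 1.11 for Lss (-1.11, 95% interval -2.69 to 0.48). Without both untransfected arrays the count was also 0, with a lowest adjusted p of 0.0921.

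Against untransfected cells, 1 of the 37 genes passed in clone 18 (7.69% of all genes, 3.34% higher) and 1 in clone 41 (5.6% of all genes, 2.42% higher), Npc1l1 in both. Here the count turned on which untransfected array was kept. Against replicate 2 alone, 18 genes passed in clone 18 and 10 in clone 41, all higher (5.55% and 4.84% of all genes), with 13 and 8 of the 17 synthesis enzymes among them. Against replicate 1 alone, 0 synthesis enzymes were higher in either clone. Npc1l1 was higher in both, Srebf2 was lower in both and Fdft1 was lower in clone 41 (9.19% and 6.76% of all genes passed). With 1 untransfected array left, its spread is assumed to be that of the other lines.

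Between the IgM line and untransfected cells, 0 of the 37 genes passed by limma (2.03% of all genes), and 1 had an unadjusted p under 0.05. All 17 enzymes had untransfected replicate 1 above both IgM arrays (39.1% of all genes). For 14 of the 17 replicate 2 was also below both (13.3% of all genes had both), so the IgM line lay between the untransfected arrays for most of the pathway. Without untransfected replicate 1, Idi1 was higher in IgM cells and passed (4.42% of all genes), and without replicate 2, Fdft1 was lower and passed (3.25%).

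**Figure D4:**
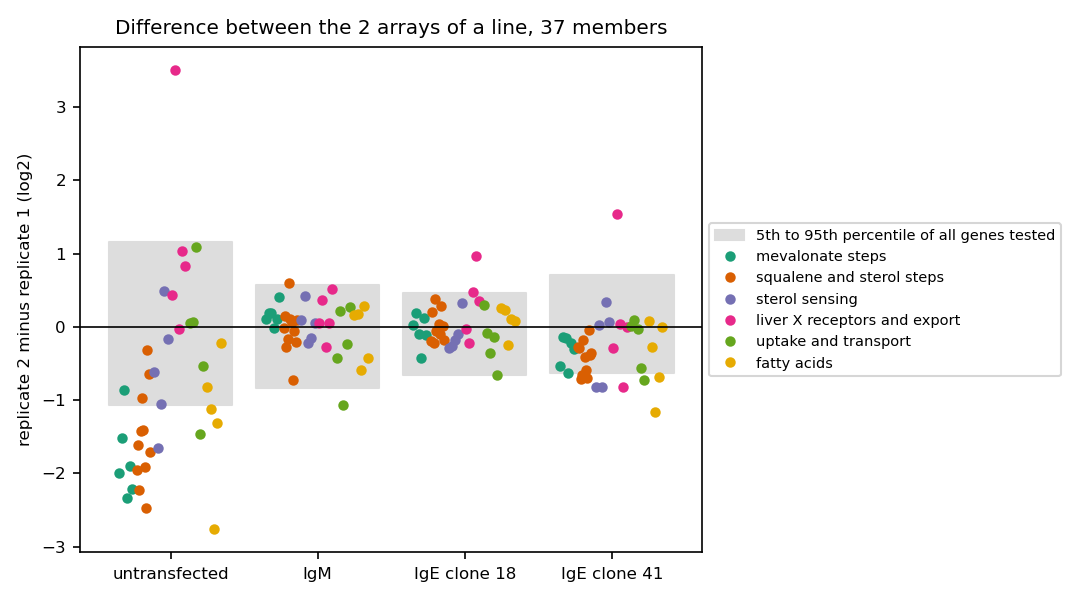
Replicate 2 minus replicate 1 within each line for the 37 genes, in log2 units and coloured by role; grey boxes span the 5th to 95th percentile of all genes. In untransfected cells the mevalonate and sterol enzymes lie mostly below the grey box and liver X receptor genes mostly above 0, while in the other lines most points stay inside the box.

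Of the 5 sterol sensing genes 0 passed by limma in any comparison with all arrays in the fit, and 2 had an unadjusted p under 0.05 for clone 18 against untransfected cells, where 27.4% of all genes did. Srebf2, which encodes SREBP-2, read 3.44 and 1.79 in untransfected cells, 2.19 and 2.62 in IgM cells, 2.47 and 2.21 in clone 18, and 2.19 and 2.23 in clone 41. Only the untransfected arrays left the narrow range of the others, 1 on each side. The IgE clones differed from the controls by -0.23 ± 0.35 (adjusted p = 0.684), with a 95% interval of -1.07 to 0.60. The sign followed the array kept: 0.18 without untransfected replicate 1 and -0.64 without replicate 2. Clone 18, the line with the highest synthesis enzymes, differed from IgM cells by -0.06 ± 0.50 in Srebf2.

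Insig1, which is itself an SREBP target and holds Scap in place, read 0.43 and -0.62 in untransfected cells, 0.26 and 0.04 in IgM cells, 1.01 and 0.83 in clone 18, and 0.52 and -0.29 in clone 41. Clone 18 was above every other array, as for many enzymes. Its difference from IgM was 0.77 ± 0.40 and did not pass (adjusted p = 0.277). Srebf1, which encodes the SREBP-1 factors of fatty acid synthesis, read -1.35 and -1.97, -1.27 and -1.18, -0.69 and -0.98, and -1.07 and -1.89. Clone 18 was again the highest line and clone 41 overlapped both controls.

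Insig2 ran the other way within the untransfected pair, 2.38 and 2.87, and spanned 2.33 to 2.66 on the other 6 arrays. The escort Scap stayed between 3.84 and 4.25 on all arrays. The IgE clones differed from the controls by -0.05 ± 0.16 for Insig2 and -0.07 ± 0.12 for Scap.

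The receptors Nr1h2 and Nr1h3 and their targets Abcg1 and Mylip ran opposite to the enzymes in the untransfected pair, being higher on replicate 2. Of these, only Nr1h3, 3.51 higher, lay outside the 5th to 95th percentile of all genes for that pair, -1.06 to 1.16. Nr1h2 was 0.43, Mylip 0.83 and Abcg1 1.03 higher. The targets Abca1 and Lpcat3 were not higher, at -0.03 and -0.20. Nr1h3, liver X receptor alpha, read -3.92 and -0.41 in untransfected cells, -2.33 and -1.97 in IgM cells, -2.04 and -2.26 in clone 18, and -3.39 and -1.85 in clone 41. Untransfected replicate 1 was the lowest and replicate 2 the highest of the 8 arrays, an 11.4-fold difference in signal. The line means were -2.16, -2.15, -2.15 and -2.62, so the lines did not differ beyond this spread. The difference of the IgE clones from the controls was -1.11 without untransfected replicate 1 and 0.65 without replicate 2. Nr1h2, liver X receptor beta, read 3.90 and 4.33, 4.23 and 4.28, 4.21 and 4.18, and 4.08 and 3.79.

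Of the targets, the exporter Abcg1 read -1.34 and -0.31 in untransfected cells, -1.06 and -1.0 in IgM cells, -0.73 and 0.23 in clone 18, and -0.17 and -0.98 in clone 41. Mylip, the ligase that removes lipoprotein receptors, read 0.38 and 1.20, 0.10 and 0.61, 0.80 and 1.15, and 1.02 and 1.01. Both were higher on untransfected replicate 2 than on replicate 1, and both IgE clones were above both IgM arrays for each. Clone 18 was above both IgM arrays for 35.3% of all genes and clone 41 for 33.6%. The exporter Abca1 read 2.20 and 2.17, 2.38 and 2.11, 1.70 and 2.18, and 2.21 and 2.24, with the untransfected pair 0.03 apart. The differences of the IgE clones from the controls were 0.51 ± 0.33 for Abcg1, 0.42 ± 0.22 for Mylip and -0.13 ± 0.15 for Abca1 (0.26, 0.22 and -0.12 without untransfected replicate 1, and 0.77, 0.63 and -0.14 without replicate 2), and 0 of the 5 receptor and export genes had an unadjusted p under 0.05 by limma. On untransfected replicate 2, Nr1h3 and Abcg1 were at least 2-fold above replicate 1, where 7.03% of all genes were. Npc1l1 was too, below background on both.

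In fatty acid synthesis 0 of the 5 tested enzymes passed against both controls by limma, and 1 had an unadjusted p under 0.05. That was Fasn, the fatty acid synthase, at 1.38 and 0.56 in untransfected cells, 0.77 and 0.94 in IgM cells, 1.34 and 1.60 in clone 18, and 1.45 and 1.53 in clone 41. Both clones were above both IgM arrays, as were 35.3% of all genes for clone 18 and 33.6% for clone 41. The clones lay level with each other in Fasn (clone 41 minus clone 18 0.02 ± 0.28, 95% interval -0.65 to 0.69). The difference from the controls was 0.56 ± 0.20 (adjusted p = 0.0949), and it was 0.77 and 0.36 without untransfected replicate 1 and 2. The median of the 5 enzymes was 0.40, and 0.72 and 0.07 in those fits. Acaca, acetyl-CoA carboxylase 1, read 5.30 and 4.19, 4.27 and 4.45, 5.02 and 5.25, and 5.04 and 4.77.

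The desaturase Scd1 had the largest drop of the 37 genes between the untransfected arrays, 4.97 and 2.20, a 6.80-fold difference. It read 3.82 and 3.23 in IgM cells, 3.78 and 3.53 in clone 18, and 3.20 and 2.04 in clone 41. Clone 41 was below clone 18 on both arrays, and the mean difference of the IgE clones from the controls, -0.42 ± 0.60, was the largest negative one of the set. It was 0.28 without untransfected replicate 1 and -1.11 without replicate 2. Scd2, its close relative, read 6.70 and 5.39, 6.0 and 6.29, 6.85 and 6.95, and 6.41 and 5.74, with the 6.70 saturated. Fads1 read 0.68 and 0.47, 0.52 and 0.09, 0.66 and 0.75, and 0.41 and 0.41, all within 0.09 to 0.75.

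Other genes of lipid metabolism were taken from a list of 39, of which 35 could be tested. Against both controls 1 of the 35 rose and 3 fell, near the 8.99% of all genes that passed. Lpcat3, a phospholipid acyltransferase known as a liver X receptor target, rose by 1.18 ± 0.15 (adjusted p = 0.00326). Erlin1, which takes part in sterol-regulated degradation, fell by 1.19 (-1.19 ± 0.14, adjusted p = 0.00262). Acacb, the mitochondrial acetyl-CoA carboxylase, fell by 1.81 (-1.81 ± 0.16, adjusted p = 0.000682). Me1, the malic enzyme, passed as lower, but it was not well above background on any IgE array, and the bound is at least 1.07-fold. Of the 8 isoprenoid branch genes and the 8 sterol storage genes tested 0 passed against both controls by limma, with 1 and 3 at an unadjusted p under 0.05. Soat1, a sterol acyltransferase of the storage genes, was 1.05 ± 0.21 higher in clone 18 than in untransfected cells and passed (adjusted p = 0.028), but not without untransfected replicate 2 (0.87, adjusted p = 0.0658).

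Lpcat3 and Acacb passed in each of the 4 comparisons of 1 IgE clone with 1 control, with all arrays in the fit. Without untransfected replicate 2, Lpcat3 in clone 41 against untransfected cells did not (0.93, adjusted p = 0.0931). Lpcat3 was 1.35 and 1.03 above untransfected cells in clones 18 and 41, and 1.34 and 1.02 above IgM cells. Acacb was lower by 1.69 and 2.16 (-1.69 and -2.16) and by 1.46 and 1.92 (-1.46 and -1.92). Without both untransfected arrays Erlin1 was -0.82 and short of 2-fold, and without either one Me1 did not pass (adjusted p = 0.0556 and 0.0569). Erlin1 passed at 2-fold against untransfected cells and not against IgM cells, where it was lower by 0.90 and 0.75 (-0.90 and -0.75). Against untransfected cells it fell by 1.62 and 1.48 (-1.62 and -1.48). The median of the 35 between the untransfected arrays was -0.20, and 7 were at least 2-fold lower on replicate 2 (5.66% of all genes), among them the fatty acid elongase Elovl6 (-1.51) and the acetyl-CoA synthetase Acss2 (-1.45), and 1 was higher, Soat2 (5.35), where 7.03% of all genes were. Erlin2, also among the 7, was lower by 5.87 (-5.87).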

How the data were processed

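Total RNA of 8 samples was hybridised with 1 dye to Agilent arrays of design 028005. Per the file headers, the deposited spot intensity was made by Agilent Feature Extraction 10.7.3.1, background-subtracted and detrended, with probes placed on mm9. The authors' deposited log2 table and the median pixel intensity put the probes in the same order. Its column medians were 5.90 to 5.92, and its normalization is not given in the sources used here.

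Here log2 intensity was taken over each array's 75th percentile. Control and outlier spots were left out, and repeat spots were averaged. Probes stayed in where some line had them well above background on each of its arrays (29140 of 55681). A gene took its brightest kept probe, giving 19973 genes, and orders of arrays were counted over the 19952 with no missing value. The fit gave each line 1 mean and used limma 3.58.1 in R 4.3.3 over all genes (4 residual and 2.66 prior degrees of freedom), with two-sided tests and Benjamini-Hochberg adjustment. Bounds used the dimmest signal well above background on each array. On simulated data for IgE against control lines over 19952 genes, with 200 genes changed, 92% of those changed by 1.5 and 99% of those changed by 3 log2 units were recovered, beside 9 false calls in all. The simulated noise was independent between genes and arrays, with a spread drawn around that of the median gene. It held no array on which genes shifted together, so these rates do not apply to the synthesis enzymes.

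The members, gene lists and the rule for printed values were chosen with earlier results of these data known. By that rule every member is accounted for, with values on each array for those called, those with the largest differences and a list fixed by name. The arrays shared 1 slide and 1 scan time, and each line filled its own slide column, so line and column cannot be told apart. Replicate numbers were also slide rows. Alternatives were quantile normalization, normexp with an offset of 50, looser and stricter filters, the authors' table, every probe, other priors, a replicate block and leaving arrays out.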

Additional observations from a re-analysis of the deposited data

Results flagged for a closer look

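There were 74 sets of 4 arrays (37 genes, control and IgE side). In 5 of them, 1 array lay further from the rest than Dixon's 95% limit for the gap over the range allows. Chance gives this in about 1 of 20 sets of independent values from 1 population. Each set here pools 2 lines and the sets share the same 8 arrays, so that rate does not apply. For Fdft1 the array was untransfected replicate 1, at 3.20, with the nearest control array at 1.57. The other 4 were all clone 18 replicate 1 on the IgE side: Srebf2 at 2.47, Scap at 3.84, Abca1 at 1.70 and Npc1 at -1.92. The nearest IgE arrays read 2.23, 4.16, 2.18 and -1.66 for these genes.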

How the results depend on the processing

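Apart from clone 41 against IgM and clone 41 against clone 18, counts moved furthest when an untransfected array was left out. The number of the 37 genes called for IgE clones against both controls was 1, and it was 0 when only probes above background on all arrays were kept (Npc1l1 then drops out), 2 with every probe its own feature (Hsd17b7 added), 2 with trended robust priors and 7 without both untransfected arrays. Leaving out single arrays gave 1 to 14, the 14 without untransfected replicate 1. For clone 18 against untransfected cells it was 1 with the strict filter too, but Acat2 in place of Npc1l1, and it was 2 with normexp, every probe or other priors, and 1 to 18 leaving out single arrays. For clone 41 against untransfected cells it was 0 with the strict filter and 1 to 10 leaving out single arrays. For clone 18 against IgM the count of 2 became 1 with quantile normalization, no filter, the strict filter or the authors' table, 12 without both untransfected arrays, and 1 to 12 leaving out single arrays. Without any 1 IgM or IgE array it was 1. For clone 41 against IgM it was 0 with the strict filter, and for IgM against untransfected cells 0 to 1 leaving out single arrays. The median over the 37 genes kept its sign in all 20 alternatives run (0.28 to 0.72). Over all genes, calls for IgE clones against both controls were 1795 of 19973, 1085 of 17371 (strict filter) and 2620 of 29140 (every probe). They were 1876 with trended robust priors and 2170 without both untransfected arrays. For clone 18 against untransfected cells they were 1536, 1078 (strict), 1118 (normexp), 2173 (every probe) and 1663 (other priors). For clone 18 against IgM they were 1826, 1686 (quantile), 1178 of 34797 (no filter), 1215 (strict) and 1117 (authors' table).

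The replicate block gave 2 genes for the IgE clones against both controls (Npc1l1 and Stard4), 2 for clone 18 against untransfected cells (Npc1l1 and Acat2) and 2 for clone 18 against IgM (Npc1l1 and Stard4). Between lines, the difference of a line's 2 arrays correlated by -0.02 to 0.32 across genes, so the numbers were not taken as pairs. The highest value was for the untransfected line and clone 41, in both of which replicate 2 was lower for all 17 synthesis enzymes. Over all genes the block gave 1843 calls against 1795 for IgE clones against both controls. For clone 18 it gave 1562 against 1536 (untransfected cells) and 1847 against 1826 (IgM).

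Some differences between IgE clones and controls near 0 changed sign. Cyp51 was 0.0169 with quantile normalization and -0.37 to 0.34 leaving out single arrays. Insig2 was 0.26 with every probe, 0.0193 without both untransfected arrays and -0.18 to 0.0673 leaving out single arrays. Npc1 was -0.0114 with normexp, -0.098 in the authors' table and -0.0847 to 0.13 leaving out single arrays, Fads1 was -0.0092 and -0.0268 in the former pair of settings, and Abca1 was 0.0149 in the authors' table. Leaving out single arrays gave -0.0823 to 0.68 for Mvk, -0.0074 to 0.42 for Pmvk, -0.64 to 0.18 for Srebf2, -0.16 to 0.0081 for Scap, -1.11 to 0.65 for Nr1h3 and -1.11 to 0.28 for Scd1. The cause of these changes was not tested.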

Other observations

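Npc1l1 was singled out after its values were seen, and the genes around it were then read from the array's mm9 positions. Within 250 kb of its probe 12 other genes were tested, and 0 passed for IgE clones against controls by limma, where 8.99% of all genes did. So few genes cannot tell the region from the rest of the array. Their differences ran from -0.32 to 0.95. Camk2b, which encodes a calcium-dependent kinase, had the highest difference, at an adjusted p of 0.0265 and short of 2-fold. It read -4.82 to -4.22 on the control arrays, near the dimmest signal well above background there, -4.90 to -4.76.

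Of the 14 genes with more than 1 probe, 13 had more than 1 tested probe. In 12 of these 13 all probes gave the same sign for IgE clones against controls, Insig2 being the exception, and in 13 of 13 they gave the same sign between the untransfected arrays.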
